A study of Mus musculus with 68 samples.

Results

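The colon tumours of ApcMin mice were compared between Cftr knockout and Cftr wildtype, 2 tumours of each, which are 4 of the 23 specimens in the series. The tumours were selected by their labels for genotype and tissue, and by nothing measured in them. RNA abundance was given per gene as FPKM, a fragment count scaled by transcript length and by the number of mapped fragments. The mice were C57BL/6 and 3 months old, and the genotypes were written as Apc-CFTR- for the knockout tumours and Apc-CFTR+ for the wildtype tumours, so both groups carried the Apc mutation. The husbandry notes describe a Cftr fl/fl Villin-Cre cross on an Apc+/+ background, in which Villin drives Cre in intestinal epithelium, while no label used here states which Cftr alleles the Apc- mice carried. If the same cross was used, stromal and immune cells kept an intact Cftr gene. The tumours of a genotype carried 1 animal number, and the ileum tumours of that genotype carried the same number. The spread behind the p-values came from all specimens, some of whose replicates were other animals and some tumours with 1 animal number, so it holds no spread between ApcMin animals of a genotype. Genotype and animal cannot be told apart.

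Cftr encodes a chloride and bicarbonate channel in the apical membrane of intestinal epithelium, where it drives fluid secretion and hydrates mucus. Apc is a scaffold of the complex that marks beta-catenin for destruction, and its loss turns on Wnt target genes and starts adenomas, which in ApcMin mice arise mainly in the small intestine and also in the colon. Ileum tumours of the same 2 genotypes and normal colon of Apc+ mice with and without Cftr served for reference. So did colon tumours of ApcMin mice labelled Cftr heterozygous, which were read in another sequencing run. These groups and the rest of the series also entered the fit that gave the spread. The rest were normal duodenum of Apc+ mice with and without Cftr, and duodenal and colon tumours of Apc+ Cftr-knockout mice. Duodenal tumours of ApcMin mice labelled Cftr heterozygous were also among them.

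The 4 colon tumours were read in run 2, each in 2 lanes whose values differed by an SD of 0.0993 to 0.118 on the log2 scale. The FPKM values of a lane summed to between 476200 and 555200, and 27.7% to 28.9% of genes stood at 0. The depth of each lane relative to the first lane of knockout tumour 1, estimated from the low values alone, lay between 0.957 in wildtype tumour 2 and 1.18 in wildtype tumour 1. The tumours did not pair by genotype: the SD of gene differences was lowest between knockout tumour 2 and wildtype tumour 2, at 0.23 on the log2 scale, against 0.291 between the 2 knockout tumours and 0.424 between the 2 wildtype tumours. Replicate ileum tumours differed by an SD of 0.192 and 0.214, so the colon tumours of a genotype were less alike than the ileum tumours. Of 14098 genes tested, 1113 (7.89%) were over 2-fold apart between the wildtype tumours, 3.39% of all genes being higher in tumour 1 and 4.5% in tumour 2. Between the knockout tumours 462 (3.28%) were, 2.26% higher in tumour 1 and 1.01% in tumour 2.

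Wildtype tumour 1 was the library that stood apart. All 18 smooth muscle genes were lower in it than in wildtype tumour 2, with a median log2 difference of -2.37, and colonocyte, goblet and detoxification genes were lower too, with medians of -1.14, -1.23 and -1.64. Neutrophil genes were higher in it, with a median of 1.37. Within the knockout, tumour 1 was above tumour 2 in all 18 smooth muscle genes, with a median of 1.13. Des, the intermediate filament of muscle, shows the range: 77.3 and 23.2 FPKM in knockout tumours 1 and 2, and 4.24 and 132 in wildtype tumours 1 and 2. In all values below, tumours 1 and 2 are given in that order, and values without wildtype tumour 1 stand beside the groups it moves. In bulk tissue, fewer cells of a type and less RNA per cell cannot be told apart.

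**Figure D1:**
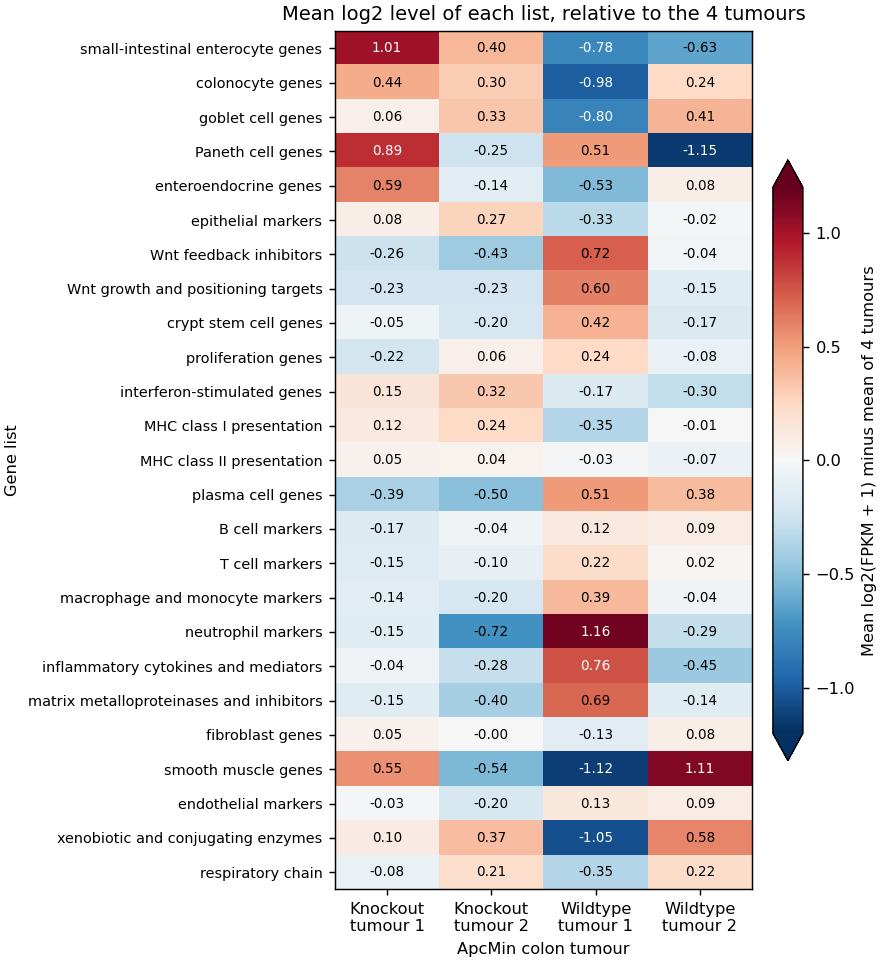
Heat map of the mean log2(FPKM + 1) of each gene list (vertical axis) in the 4 ApcMin colon tumours (horizontal axis), minus the mean of the 4 tumours, with the value written in each cell. Wildtype tumour 1 has the highest neutrophil value (1.16) and the lowest smooth muscle value (-1.12), where wildtype tumour 2 has 1.11, and plasma cell genes are negative in both knockout tumours (-0.39 and -0.50) and positive in both wildtype tumours (0.51 and 0.38).

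The transcripts of Cftr did not mark the genotype. Cftr was at 14.3 and 21.3 FPKM in the knockout tumours and 18.05 and 24.8 in the wildtype tumours, a log2 change of -0.26 ± 0.34 (SE) that did not pass limma (adjusted p = 0.78), and the groups overlapped. A level summed over the whole gene still counts transcripts that lack a deleted exon, so it checks neither label. Apc was at 17.1 and 16.5 FPKM against 18.2 and 17.8, a log2 change of -0.10. Epithelial markers were abundant in all 4 tumours, with the adhesion molecule Epcam at 854 and 967 FPKM in the knockout and 801.1 and 782 in the wildtype. Of 16 epithelial markers tested, 14 had positive log2 changes, with a median of 0.37, and none passed limma. In 9 of them both knockout tumours lay above both wildtype tumours, and in none below. The median was 0.17 and 0.57 without wildtype tumours 1 and 2, and 0.44 and 0.28 without knockout tumours 1 and 2. It was -0.07 in the ileum tumours and 0.27 in normal colon. Whether this contributed to the epithelial lists below was not tested.

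Regional markers differed between tumours, some by genotype and some within it. Hoxd13, a homeobox gene of the hindgut, was at 99.0 and 4.62 FPKM in the knockout tumours and at 0.0532 and 0.0657 in the wildtype tumours, where normal colon held 0.893 to 8.81. Both wildtype tumours thus lay below every normal colon specimen for Hoxd13 and both knockout tumours above the wildtype ones, yet the log2 change of 4.48 ± 1.497 did not pass limma (adjusted p = 0.28). The heterozygous colon tumours split as widely, at 1.48 and 70.5 FPKM. Hoxd10, Hoxd11 and Hoxd12, its neighbours in the HoxD cluster, followed the same order: Hoxd12 was at 8.74 and 0.51 FPKM in the knockout and at 0 in both wildtype tumours. Hoxb13, a colon marker of another cluster, was at 229 and 24.8 FPKM against 59.0 and 10.3, with overlapping groups. Cdx2, the caudal factor that maintains intestinal fate, was low in both tumours 1 (19.0 and 24.9 FPKM) and high in both tumours 2 (106 and 108). Car1, the carbonic anhydrase of surface colonocytes, went the same way, at 314 and 2154 FPKM in the knockout and 124 and 2119 in the wildtype. The tumour number, which has no stated meaning, was therefore a stronger divide than genotype for Cdx2 and Car1.

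Knockout colon tumour 1 and knockout ileum tumour 2 shared regional transcripts, some of them at similar shares. The colon tumour held the lactase Lct at 7.86% of the level in that ileum tumour, the sucrase Sis at 7.63%, the apolipoproteins Apoa1 and Apoa4 at 6.62% and 6.94%, the fatty acid carrier Fabp1 at 7.36% and the Paneth cell defensin Defa22 at 6.17%. These genes were chosen after their values were seen. Over all 33 small-intestinal enterocyte genes the share of this ileum tumour had a median of 9.66%, quartiles of 7.82% and 14.5% and an SD of 1.04 on the log2 scale. Against ileum tumour 1 with the same animal number the shares of the named genes ran from 2.93% for Defa22 to 67.6% for Lct. In the other direction, 8 colon genes picked by hand were compared: Hoxa13, Hoxb13, Hoxd10, Hoxd11, Hoxd12, Hoxd13, Car1 and Fxyd4. Those of the HoxD cluster are neighbours, and no share was computed over the whole colonocyte list. Ileum tumour 2 held the 8 genes at 7.15% to 11.9% of the level in colon tumour 1, with a median of 9.34%. By contrast, ileum tumour 1 held them at 0.119% to 0.321%. The ileal bile acid binding protein Fabp6 did not follow these shares: the colon tumour held 93.1% of the 53.8 FPKM in that ileum tumour. Whether tissue or RNA was shared between these specimens was not tested, and every small-intestinal gene in knockout tumour 1 is read below with that value in view.

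**Figure D2:**
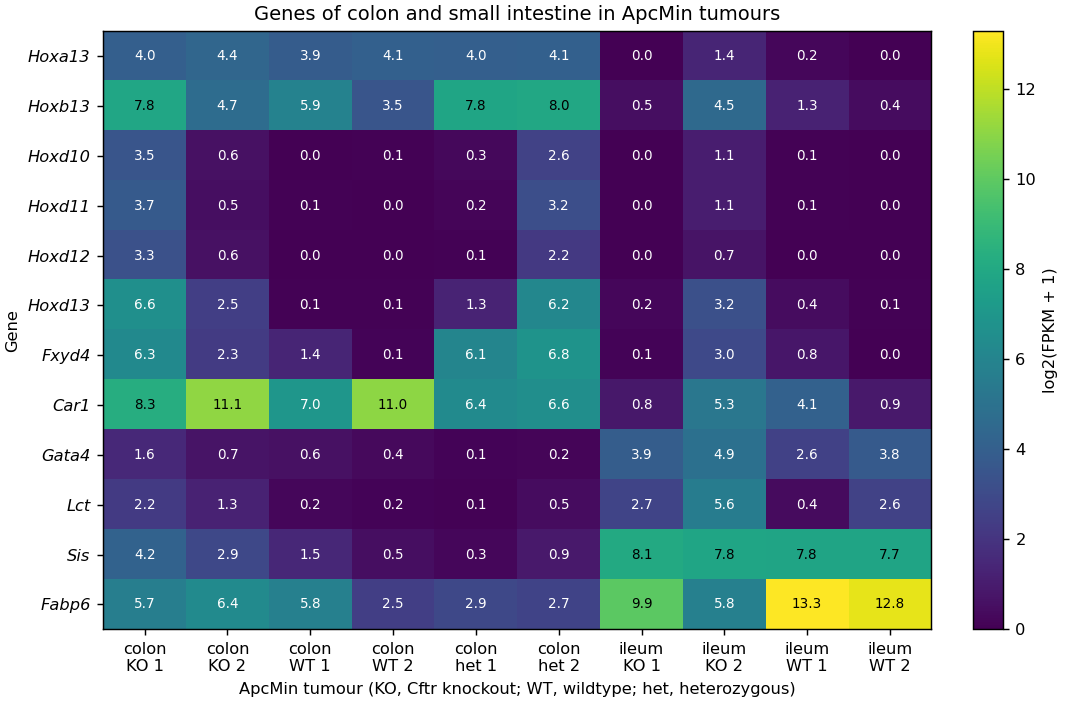
Heat map of log2(FPKM + 1), written in each cell, for genes that mark colon or small intestine (vertical axis) in the ApcMin colon and ileum tumours (horizontal axis). Hoxd13 is bright in knockout colon tumour 1 and dark in both wildtype colon tumours (99.0 against 0.0532 and 0.0657 FPKM), and among the ileum tumours knockout tumour 2 has the highest level of every colon gene from Hoxa13 to Car1.

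Genotype was tested gene by gene with limma on log2(FPKM + 1), with the spread estimated over all specimens. In the knockout tumours 1 gene rose and 8 fell at an adjusted p under 0.05, which is 0.0638% of the 14098 genes tested (0.00709% higher and 0.0567% lower). The 8 that fell act in peptide uptake (Slc15a2), peptide breakdown (Ide), innate immune signalling (Card6), monocyte and lymphocyte surfaces (Ly6c2), growth factor release (Pappa), matrix binding of TGF-beta (Ltbp2) and epithelial chemokine supply (Cxcl14), with Gm7120 as a predicted gene. At an unadjusted p under 0.05 there were 1725 genes (12.2%). An exact permutation test of any single gene cannot go below p = 0.333 with 2 tumours against 2, so each call rests on the spread shared with the other specimens. Replicates in other groups were closer, with an SD of 0.146 in heterozygous colon tumours, 0.192 and 0.214 in ileum tumours, and 0.187 and 0.199 in normal colon. The wildtype and knockout colon tumours had 0.424 and 0.291, so the SEs and p-values of this comparison may be too small. All 9 calls were lost when the spread was estimated from these 4 tumours alone, where 590 genes had an unadjusted p under 0.05. With 1 tumour left out, the remaining tumour of that genotype being assumed to vary like the other groups, 1 gene was called without knockout tumour 1, 105 without knockout tumour 2, 1 without wildtype tumour 1 and 1920 without wildtype tumour 2.

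Slc15a2, the high-affinity proton-coupled carrier of di- and tripeptides known as PEPT2, gave the lowest p. Slc15a2 was at 0.0504 and 0.176 FPKM in the knockout and 3.45 and 6.31 in the wildtype, so that the knockout tumours were near 0 (log2 change -2.36 ± 0.21, limma adjusted p = 0.001). The ileum tumours showed the same order, at 0.15 and 0.20 FPKM against 3.70 and 4.10, but the heterozygous colon tumours were also low, at 0.48 and 0.32. In normal colon the log2 change of Slc15a2 was -0.12. The gene lies on chr16:36750177-36784962, minus strand, and was called in 11 of 12 alternative analyses, more than any other of the 9.

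Tfip11, a splicing factor that takes part in releasing the spliced lariat, was the gene that rose. Tfip11 was at 19.7 and 19.7 FPKM in the knockout and 11.7 and 12.4 in the wildtype (log2 change 0.67 ± 0.09, limma adjusted p = 0.0251). Its log2 change was 0.63 in the ileum tumours and 0.64 in normal colon of other animals, close to the same value in 3 tissues. Srrd, which overlaps Tfip11 by 682 bases on the opposite strand of chr5:112326358-112343040, was at 12.7 and 14.2 FPKM against 8.91 and 7.18 (log2 change 0.68, adjusted p = 0.0758). The library kit named in the labels is not stated to keep strand, so reads of the shared stretch cannot be told apart.

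Ide, the insulin-degrading metalloprotease that also cleaves other small peptides, was at 14.4 and 15.5 FPKM against 28.9 and 25.3 (log2 change -0.82 ± 0.11, adjusted p = 0.0303). Gm7120, listed by RefSeq as Tmem267, a predicted membrane protein, was at 5.05 and 4.71 FPKM against 19.3 and 20.5, with the tumours of each genotype close together (log2 change -1.84 ± 0.26, adjusted p = 0.0303). The ileum tumours of both genes lay in the same direction, with log2 changes of -0.58 for Ide and -1.18 for Gm7120. Normal colon lay in the opposite direction, at 0.13 for Ide and 0.41 for Gm7120. Gm7120 shares 345 bases with 3110070M22Rik and 1295 bases with Gm48265, both on the other strand, so part of its level is uncertain. The same limit holds for other called genes. Ide shares 642 bases with the pseudogene Rpl10-ps6 on the same strand. On the opposite strand, Slc15a2 shares 769 bases with the pseudogene Gm8425 and Ltbp2 shares 764 with the antisense gene D030025P21Rik.

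Card6, a caspase-recruitment protein that modulates NF-kappaB signalling, was at 3.13 and 3.23 FPKM against 6.49 and 6.46, with the tumours of each genotype nearly equal (log2 change -0.84 ± 0.13, adjusted p = 0.046). Ly6c2, a surface antigen of inflammatory monocytes, was at 4.49 and 3.97 FPKM against 11.1 and 14.3 (log2 change -1.41 ± 0.22, adjusted p = 0.046). Its copy Ly6c1, whose transcript is 95% identical, was at 77.1 and 72.9 FPKM against 42.5 and 47.0, higher in the knockout (log2 change 0.73, adjusted p = 0.206). The reads of such copies can be divided between them in counting, and the pair together was higher in the knockout, so the fall of Ly6c2 is uncertain.

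Pappa, a protease that frees insulin-like growth factor from Igfbp4, was at 0.799 and 0.895 FPKM against 2.66 and 2.47 (log2 change -0.95 ± 0.15, adjusted p = 0.046). Igfbp4 itself, its substrate and an inhibitor of Wnt receptor activation, was at 131 and 135 FPKM against 322 and 199, a log2 change of -0.92 that did not pass (adjusted p = 0.13). Ltbp2, a matrix protein of the latent TGF-beta binding family, was at 0.926 and 0.744 FPKM against 3.09 and 2.69 (log2 change -1.09 ± 0.17, adjusted p = 0.0467). Cxcl14, a chemokine made by epithelium and stroma, was at 13.3 and 10.6 FPKM against 43.6 and 29.6 (log2 change -1.53 ± 0.24, adjusted p = 0.0467). Both heterozygous tumours held Cxcl14 at the wildtype level, 46.7 and 39.4 FPKM. Pappa, Ltbp2 and Ly6c2 were the least stable calls, kept in 6 of 12 alternatives each, although the direction of all 9 genes was the same in every alternative run.

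**Figure D3:**
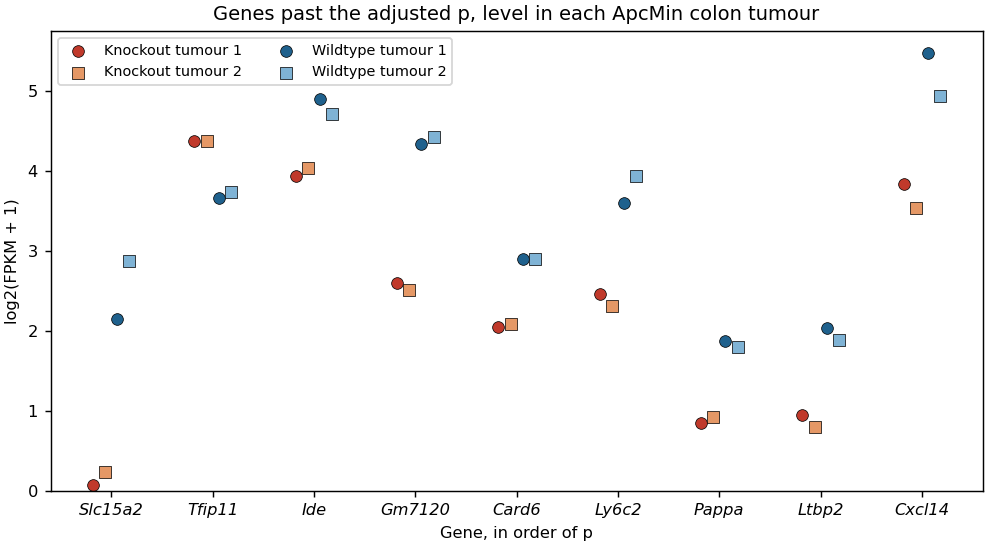
Level of the 9 genes past the adjusted p of 0.05 in each ApcMin colon tumour, as log2(FPKM + 1) on the vertical axis, with genes in order of p and 1 point per tumour. Tfip11 is the gene with the knockout tumours above the wildtype tumours, and in the other 8 both knockout points lie below both wildtype points.

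Just outside the threshold stood genes of several kinds. Xlr4a and Xlr3a, X-linked lymphocyte-regulated genes that lie 3.82 kb apart, were nearly silent in the wildtype tumours and not in the knockout ones. Xlr4a was at 6.93 and 5.48 FPKM against 0.307 and 0.152 (log2 change 2.54 ± 0.42, adjusted p = 0.063), and Xlr3a at 6.81 and 4.75 against 0.42 and 0.13. The knockout ileum tumours held Xlr4a at 0.36 and 0.97 FPKM, far less than the colon tumours with the same animal number. Aga, a lysosomal enzyme of glycoprotein breakdown, was at 18.7 and 15.9 FPKM against 10.8 and 9.39, and its neighbour Neil3, a DNA glycosylase, at 4.78 and 6.65 against 2.34 and 2.25. The log2 changes of Aga and Neil3 were 0.72 and 1.02 in the colon tumours and 0.83 and 1.10 in the ileum tumours, nearly equal in each. Ret, the receptor of glial-derived neurotrophic factor, was at 7.55 and 10.7 FPKM against 3.60 and 3.56 (log2 change 1.13, adjusted p = 0.1), with an ileum tumour log2 change of 0.02. Cav2, a caveolar coat protein, was at 20.1 and 13.97 FPKM against 9.09 and 8.46.

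Beyond single genes, lists of genes were described by how many members lay higher or lower. For this, a gene counted as non-overlapping when both knockout tumours were on the same side of both wildtype tumours, which held for 17% of all genes in the higher and 15.7% in the lower direction. All genes tested had a median log2 change of 0.00, and 50.5% of the changes were positive. No list contained more than 1 of the 9 called genes, so what follows gives levels and counts of genes that did not pass the test, unless a gene is said to have fallen.

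**Figure D4:**
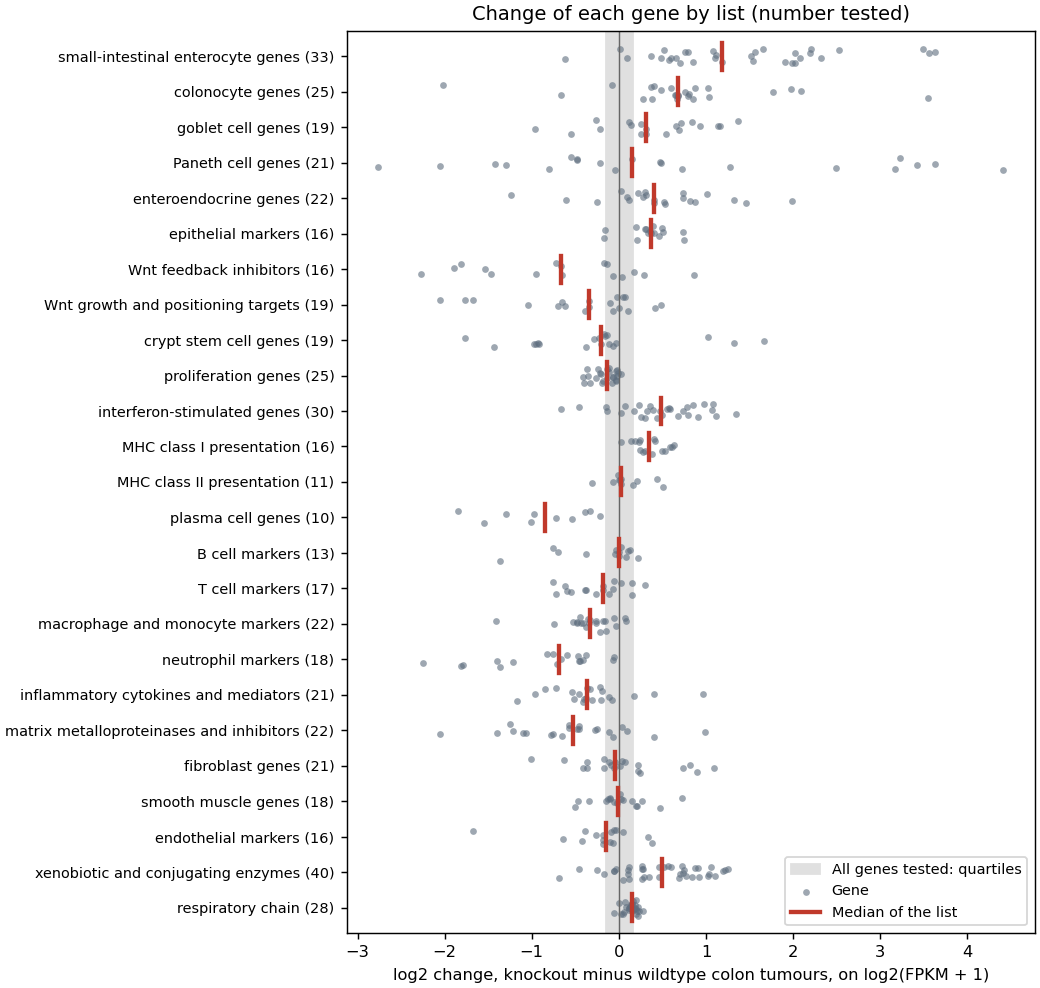
Log2 change (knockout minus wildtype colon tumours, horizontal axis) of each tested member of 25 gene lists, with 1 point per gene, a bar at the median of the list, the number tested in brackets and a grey band for the quartiles of all genes tested. The median of small-intestinal enterocyte genes is the highest of these lists at 1.19 and that of plasma cell genes the lowest at -0.85.

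Small-intestinal enterocyte genes had the higher values in the knockout. Of 33 tested, 32 changes were positive and 22 were non-overlapping and higher, none lower, with a median of 1.19. Slc15a1, the peptide carrier of the intestinal brush border and the close relative of Slc15a2, was at 59.97 and 26.6 FPKM against 7.77 and 10.6 (log2 change 2.02, limma adjusted p = 0.13). These 2 carriers of the SLC15 family lay in opposite directions, Slc15a1 without passing the test. Slc6a19, the neutral amino acid carrier, was at 11.3 and 4.69 FPKM against 1.59 and 0.653. Knockout tumour 1 was the higher of its pair for both of these genes. Relative to the mean of the ileum tumours with the same animal number, the 33 genes had a median level of 12.2% in knockout tumour 1, 5.36% in knockout tumour 2, 2.23% in wildtype tumour 1 and 3.79% in wildtype tumour 2. Without knockout tumour 1, which shares transcripts with ileum tumour 2, the median log2 change was 1.00 and 31 of 33 were positive, and without wildtype tumour 1 the median was 1.33 but 24 of 33 were positive. Knockout tumour 2 held Sis and Lct at 2.84% and 2.91% of their level in that ileum tumour. The medians of the same list were -0.05 in the ileum tumours and -0.94 in normal colon, where wildtype colon 2 held Sis at 34.0 FPKM.

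**Figure D5:**
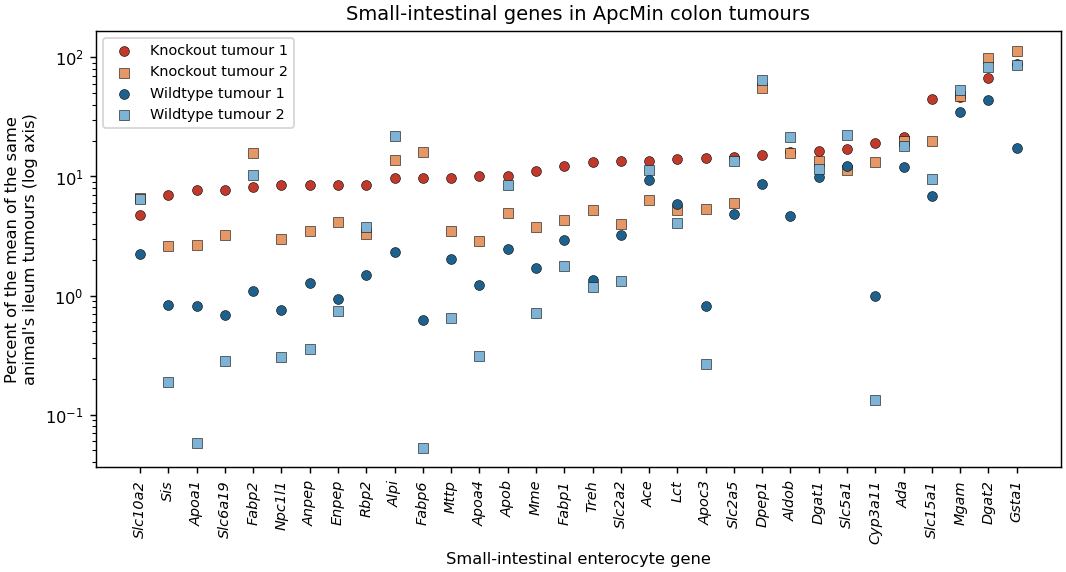
Level of small-intestinal enterocyte genes (horizontal axis) in each colon tumour as a percentage of the mean of the 2 ileum tumours with the same animal number, on a log axis, with 1 point per tumour. The medians over the 33 genes tested, 1 of which is not drawn, are 12.2% and 5.36% in the knockout tumours and 2.23% and 3.79% in the wildtype tumours, and knockout tumour 1 keeps to a narrow band over most genes, with quartiles of 8.43% and 16.1%.

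Paneth cell genes split by member. Of 21 tested, 7 were non-overlapping and higher and 3 lower, with a median of 0.15. Defa22, an alpha-defensin, was at 23.3 and 5.31 FPKM against 0 and 0.349, but the wildtype ileum tumours held it at 0.692 and 0.32 FPKM where the knockout ileum tumours held 797 and 378. Gm21002, a predicted gene, was at 45.3 and 11.0 FPKM against 0 in both wildtype tumours, and the phospholipase Pla2g4c at 39.5 and 9.34 against 0.563 and 0.857. The wildtype ileum tumours held Gm21002 at 1.17 and 1.54 FPKM and Pla2g4c at 3.43 and 8.29, the latter close to knockout colon tumour 2. The heterozygous colon tumours held Defa22 at 117 and 109 FPKM but Pla2g4c at 0.274 and 0.34. Defa24, a defensin present in both genotypes, was at 679 and 230 FPKM against 1797 and 118. Lyz1, the Paneth cell lysozyme, was at 284 and 215 FPKM against 4251 and 663 (log2 change -2.76, adjusted p = 0.22), with the wildtype value led by tumour 1. The median of the list was 1.71 without wildtype tumour 1 and -1.07 without wildtype tumour 2, so its direction depended on which wildtype tumour was kept.

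Genes of the colon's own epithelium were higher in the knockout when all 4 tumours were used. Of 25 colonocyte genes 22 changes were positive, with a median of 0.68, but 7 were non-overlapping and higher and 2 lower, and the median was -0.33 without wildtype tumour 1 and 1.40 without wildtype tumour 2. Slc9a3, the sodium-proton exchanger NHE3 that takes up salt, was among the 3 members with negative changes: it was at 8.88 and 35.1 FPKM against 52.8 and 108 (log2 change -2.02, adjusted p = 0.26). Of 19 goblet cell genes 15 were positive, with a median of 0.31 that became -0.08 without wildtype tumour 1 and 0.99 without wildtype tumour 2. Tff3, the trefoil peptide packed with mucin, was at 2482 and 2923 FPKM against 845 and 1713, and Fcgbp, a mucus-bound protein, at 259 and 232 against 67.7 and 181. For Fcgbp the low value was that of wildtype tumour 1. Lypd8, a secreted protein that keeps bacteria off the mucosa, was at 9798 and 8017 FPKM against 3462 and 5242. Mptx1, a pentraxin of the gut epithelium, was at 350 and 18.2 FPKM against 2.83 and 2.94, with most of the knockout mean in tumour 1.

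Junction proteins were described by 18 genes, of which 9 were non-overlapping and higher and 1 lower. Cldn8, a sealing claudin of the distal colon, was at 53.03 and 40.1 FPKM against 12.9 and 11.6 (log2 change 1.83, adjusted p = 0.17). Cldn2, the pore-forming claudin of crypts, lay the other way, at 84.3 and 109 FPKM against 238 and 153 (log2 change -0.99, adjusted p = 0.25). Neither passed the test, and both genes had groups that did not overlap.

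Among 30 transporters that work with Cftr, 23 changes were positive. Of the 30, 3 were non-overlapping and higher and 3 lower, both below the shares of all genes (17% and 15.7%). The median was 0.36, or -0.07 without wildtype tumour 1 and 0.60 without wildtype tumour 2. Ano1, a calcium-activated chloride channel, was at 82.6 and 33.7 FPKM against 34.2 and 20.2, with overlapping groups. Slc26a9, a chloride transporter that interacts with Cftr, was at 0.386 and 0.702 FPKM against 2.99 and 1.198. Of 65 genes within 10 Mb of Cftr, 36 were tested, of which 12 were non-overlapping and higher and 4 lower, with a median of 0.10. The genes with the lowest p among these neighbours were Cav2 and Tmem168, the latter at 23.5 and 18.3 FPKM against 12.7 and 14.8.

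Wnt feedback inhibitors were lower in the knockout, by an amount that wildtype tumour 1 largely set. The list holds genes that dampen the pathway, some of which beta-catenin turns on. Of 16 tested, 7 were non-overlapping and lower and none higher, with a median of -0.66. Apcdd1, a membrane inhibitor of Wnt receptors, was at 3.84 and 8.38 FPKM against 46.3 and 21.2 (log2 change -2.27 ± 0.40, adjusted p = 0.08), the only one of them with both wildtype tumours over 2-fold above both knockout tumours. Wif1, a secreted trap for Wnt ligands, was at 16.4 and 30.9 FPKM against 165 and 39.99. Nkd1, a cytoplasmic antagonist, was at 8.89 and 15.4 FPKM against 78.6 and 26.8, and Axin2, the scaffold of the destruction complex, at 24.5 and 16.6 against 68.8 and 22.9. In each of these genes wildtype tumour 1 was the highest of the 4, and wildtype tumour 2 lay nearer to the knockout tumours than wildtype tumour 1 did. The median was -0.27 without wildtype tumour 1 and -1.08 without wildtype tumour 2. In the ileum tumours the median of the list was -0.01, although the log2 change of Apcdd1 was -0.66 and that of Wif1 -1.03.

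Wnt targets of growth and crypt position showed the same division. Of 19 tested, 5 were non-overlapping and lower and 2 higher, with a median of -0.34 that was 0.03 without wildtype tumour 1 and -0.72 without wildtype tumour 2. Lef1, a transcription factor of the pathway, was at 1.13 and 1.35 FPKM against 6.42 and 1.83, and the receptor Tnfrsf19 at 2.59 and 3.70 against 22.2 and 7.38. Ctnnb1, which encodes beta-catenin, was at 384 and 425 FPKM against 477 and 393, and the cyclin Ccnd1 at 54.5 and 65.8 against 74.0 and 48.1, both with overlapping groups. Crypt stem cell genes had 6 of 19 non-overlapping and lower and 2 higher, with a median of -0.20. It was -0.09 without wildtype tumour 1, with 8 of 19 positive, -0.49 without wildtype tumour 2 and -0.50 without knockout tumour 1. The 2 higher ones were Clca4, at 377 and 294 FPKM against 114 and 154, and Olfm4, a stem cell glycoprotein that is scarce in mouse colon, at 6.19 and 2.80 against 1.12 and 0.287. Of 25 proliferation genes 24 changes were negative, but 1 was non-overlapping and lower and none higher. Their median of -0.14 was -0.02 without wildtype tumour 1 or without knockout tumour 1, -0.29 without knockout tumour 2 and -0.28 without wildtype tumour 2.

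Interferon-stimulated genes were higher in the knockout tumours with either wildtype tumour. Of 30 tested, 26 changes were positive and 22 were non-overlapping and higher, none lower, with a median of 0.48. Leaving out each tumour in turn gave medians between 0.41 and 0.49. The median was 0.35 in the ileum tumours, which carry the same animal numbers, and 0.04 in normal colon of other animals. No member passed the test. These genes are switched on through interferon receptors at a promoter element whose core reads GAAA, any 2 bases, GAAA. Among those with a promoter sequence, Ifit1, Ifit3, Isg15, Oas1a, Oas1g and Bst2 carry that core more than once. Bst2 had overlapping groups and a log2 change of -0.13, and the rest of these were non-overlapping and higher. The sequences before the start of 3 of the higher ones are shown as examples. They are the 250 bases before the RefSeq start, build GRCm38.p6, 5′ to 3′ on the gene's strand, with matches of the core on either strand in capitals, overlapping matches included: Oas1a on chr5:120907526-120907775 (minus strand), Isg15 on chr4:156200819-156201068 (minus strand) and Ifit1 on chr19:34640639-34640888 (plus strand).
Oas1a: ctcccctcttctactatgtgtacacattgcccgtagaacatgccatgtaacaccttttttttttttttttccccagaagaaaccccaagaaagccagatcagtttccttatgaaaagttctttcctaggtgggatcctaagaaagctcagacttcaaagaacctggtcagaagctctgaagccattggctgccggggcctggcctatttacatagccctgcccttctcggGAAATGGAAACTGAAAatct
Isg15: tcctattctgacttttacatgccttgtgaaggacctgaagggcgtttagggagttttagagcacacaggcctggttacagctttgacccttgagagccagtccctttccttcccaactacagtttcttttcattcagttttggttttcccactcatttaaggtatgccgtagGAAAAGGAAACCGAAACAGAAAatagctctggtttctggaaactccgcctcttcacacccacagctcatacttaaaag
Ifit1: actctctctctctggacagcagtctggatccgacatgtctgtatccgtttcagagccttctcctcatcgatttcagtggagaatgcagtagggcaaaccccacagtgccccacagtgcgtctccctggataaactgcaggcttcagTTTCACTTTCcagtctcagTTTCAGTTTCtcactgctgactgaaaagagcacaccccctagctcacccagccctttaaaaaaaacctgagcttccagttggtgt

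The core was found in 9 of the 20 interferon-stimulated genes with a promoter entry (45%) and in 936 of 27025 genes overall (3.46%). Of the 9 with a match 8 were non-overlapping and higher, and of the 11 without a match also 8, with median log2 changes of 0.57 and 0.47. A match of these letters therefore did not separate the members that were higher from those that were not. Oas1a, an enzyme that senses viral RNA, was at 24.8 and 31.0 FPKM against 11.5 and 15.9 (log2 change 0.98, adjusted p = 0.15). Isg15, a ubiquitin-like modifier, was at 9.39 and 12.8 FPKM against 5.64 and 3.53, and Ifit1, which binds RNA without a host cap, at 2.70 and 3.61 against 2.33 and 0.815. Oasl1, a further member of the OAS family, was at 14.9 and 22.8 FPKM against 4.69 and 9.26, and Irf7, the factor that amplifies interferon production, at 23.8 and 48.9 against 11.5 and 21.3. The heterozygous colon tumours, from another run, held Isg15 at 2.90 and 3.33 FPKM. Ifit2, whose promoter entry holds no match, was at 2.12 and 2.23 FPKM against 8.78 and 1.55, with overlapping groups.

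Genes of MHC class I presentation were higher by less. All 16 changes were positive and 11 were non-overlapping and higher, with a median of 0.34 and a range of 0.23 to 0.42 when single tumours were left out. Psmb10, an immunoproteasome subunit, was at 72.9 and 98.7 FPKM against 46.2 and 66.5, and Tap2, the peptide transporter of the endoplasmic reticulum, at 14.7 and 11.8 against 9.49 and 8.13. The heavy chain H2-D1 was at 346 and 414 FPKM against 260 and 321. The class I median was 0.08 in the ileum tumours and -0.11 in normal colon of other animals. MHC class II genes were nearly equal, with a median of 0.02 over 11 genes: H2-Aa was at 58.7 and 57.3 FPKM against 58.7 and 56.0, and Cd74, the invariant chain, at 141 and 134 against 184 and 159. In the ileum tumours the class II median was -1.19, and in normal colon it was -0.49.

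Plasma cell genes were lower in the knockout tumours and did not rest on wildtype tumour 1. All 10 changes were negative and 9 were non-overlapping and lower, with a median of -0.85 and a range of -0.97 to -0.80 when single tumours were left out. Irf4, a transcription factor needed for plasma cell formation, was at 0.729 and 0.593 FPKM against 2.34 and 2.36 (log2 change -1.01 ± 0.17, adjusted p = 0.061). Igj, the chain that joins IgA dimers, was at 197 and 136 FPKM against 621 and 563 (log2 change -1.84, adjusted p = 0.11). Mzb1, a chaperone of antibody assembly, was at 8.00 and 6.66 FPKM against 21.1 and 25.9, and Derl3, a factor of protein disposal in the endoplasmic reticulum, at 1.61 and 1.30 against 4.09 and 3.57. In all 4 genes the wildtype tumours were close to each other and at least 2-fold above both knockout tumours. The median of the list was -0.39 in the ileum tumours and 0.05 in normal colon of other animals. Of 13 B cell genes, 4 were non-overlapping and lower and 1 higher, with a median of 0.00, and Cd79a, the signalling chain of the B cell receptor that plasma cells also carry, was at 2.20 and 1.77 FPKM against 6.56 and 6.87.

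Myeloid and acute-phase genes were lower in the knockout mainly against wildtype tumour 1. Of 15 acute-phase and calprotectin genes 10 changes were negative, 4 were non-overlapping and lower and 1 higher, and the median was -0.42, or 0.01 without wildtype tumour 1 and -0.03 without knockout tumour 2, against -0.87 without knockout tumour 1 and -0.86 without wildtype tumour 2. All 18 neutrophil genes had negative changes, with a median of -0.69, but 6 were non-overlapping, and without wildtype tumour 1 the median was -0.03 with 9 positive, against -1.32 without wildtype tumour 2. S100a8, a calprotectin subunit, was at 105 and 32.7 FPKM against 397 and 58.5, and Retnlg, a neutrophil granule protein, at 7.25 and 2.84 against 56.8 and 11.2. Of 22 macrophage genes, 10 were non-overlapping and lower and none higher, with a median of -0.33, or -0.08 without wildtype tumour 1 and -0.53 without wildtype tumour 2. Ly6c2 is the member past the test, with the uncertainty from its copy Ly6c1 given above. The complement gene C1qc, a macrophage product, was at 27.3 and 26.9 FPKM against 42.2 and 30.03. Lcn2, an iron-withholding protein of inflamed epithelium, was at 30.8 and 33.7 FPKM against 241 and 67.0, and Hp, haptoglobin, at 22.04 and 18.3 against 96.5 and 50.4. For both Lcn2 and Hp each wildtype tumour was above each knockout tumour.

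Stromal lists differed in direction. Smooth muscle genes had 9 of 18 positive changes, none with non-overlapping groups and a median of -0.01. That median joined opposite values: it was -1.15 with no positive change without wildtype tumour 1 and 1.18 with 15 of 18 positive without wildtype tumour 2, and -0.50 and 0.56 without knockout tumours 1 and 2. Of 21 fibroblast genes, 3 were non-overlapping and higher and 6 lower, with a median of -0.04; Pdgfra, a receptor of crypt-supporting fibroblasts, was at 10.3 and 10.8 FPKM against 18.8 and 15.1. Endothelial genes had 10 of 16 non-overlapping and lower, with a median of -0.14, although Pecam1 was at 14.9 and 13.2 FPKM against 14.02 and 15.1. Among 22 matrix metalloproteinases and inhibitors 9 were non-overlapping and lower and 1 higher, with a median of -0.52, or -0.12 without wildtype tumour 1 and -0.90 without wildtype tumour 2. Mmp7, a protease of Paneth cells and adenomas, was at 159 and 179 FPKM against 1370 and 360, Mmp9, the gelatinase of neutrophils, at 7.74 and 6.60 against 29.6 and 14.2, and the protease inhibitor Serpine2 at 11.7 and 10.2 against 30.5 and 24.7. Adipocyte genes had 9 of 9 positive changes with a median of 0.53, or 0.14 with 6 positive without knockout tumour 1, with Adipoq at 3.83 FPKM in knockout tumour 1 and 0.272, 0 and 0.146 in the other 3 tumours.

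The medians of detoxification and respiratory chain genes changed sign without wildtype tumour 1. Of 40 detoxification enzymes 33 changes were positive, with a median of 0.49 that was -0.31 without it and 1.32 without wildtype tumour 2, and 9 were non-overlapping and higher. The sulfotransferase Sult1b1 was at 55.0 and 61.5 FPKM against 15.5 and 47.9. Respiratory chain genes had 26 of 28 positive changes with a median of 0.15, or -0.16 without wildtype tumour 1, 0.00 without knockout tumour 2 and 0.45 without wildtype tumour 2, and none had non-overlapping groups. Of 24 cholesterol synthesis genes 7 were non-overlapping and lower and none higher, with a median of -0.09. It was -0.23 with 1 of 24 positive without wildtype tumour 1, 0.06 with 14 of 24 positive without wildtype tumour 2, -0.02 without knockout tumour 1 and -0.17 without knockout tumour 2.

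Signalling lists held members on both sides. Of 19 genes of regenerative and fetal-like epithelium, 5 were non-overlapping and higher and 1 lower, with a median of 0.18. The median was -0.22 and 0.46 without knockout tumours 1 and 2, and 0.66 and -0.55 without wildtype tumours 1 and 2, so its sign depended on the tumours kept. Anxa1, an annexin of repairing epithelium, was at 461 and 427 FPKM against 308 and 248, and Ly6a, the surface antigen Sca-1 that marks such cells, at 726 and 724 against 440 and 407. Of 26 chemokines 5 were non-overlapping and higher and 4 lower, shares near those of all genes (17% and 15.7%). Cxcl14 was the chemokine that fell. Their median of 0.08 was 0.36 without wildtype tumour 1 and -0.27 without wildtype tumour 2. Ccl25, which draws lymphocytes to the small intestine, was at 15.03 and 7.83 FPKM against 5.58 and 3.13. Among 23 genes of the TGF-beta and BMP pathway 3 were non-overlapping and higher and 6 lower: Inhbb, an activin subunit, was at 2.04 and 2.37 FPKM against 5.64 and 3.90, and the BMP target Id1 at 253 and 226 against 192 and 142. Grem1, a BMP antagonist made by crypt stroma, was at 27.9 and 22.4 FPKM against 36.6 and 49.5. T cell genes had 7 of 17 non-overlapping and lower and 2 higher, with a median of -0.18, and Ctla4, a checkpoint receptor, was at 0.561 and 0.587 FPKM against 1.72 and 0.953. Of 20 immediate early genes 8 were non-overlapping and higher and none lower, with a median of 0.12 that was 0.38 without wildtype tumour 1 and 0.02 without wildtype tumour 2. Fos, a subunit of the AP-1 factor, was at 87.7 and 86.2 FPKM against 53.2 and 46.8.

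The genotype change in colon tumours was set against that in ileum tumours and in normal colon by testing the difference of changes, gene by gene. No gene passed an adjusted p of 0.05 in limma for colon tumours minus ileum tumours, with 690 (4.89%) at an unadjusted p under 0.05. No gene passed for colon tumours minus normal colon either, with 1177 (8.35%) unadjusted. Neither count says that the changes were equal. The gene nearest to the threshold against the ileum was Akr1b7, an aldo-keto reductase, with a difference of 2.84 (adjusted p = 0.0561), and against normal colon it was Slc15a2, with a difference of -2.24 (adjusted p = 0.0813). Gm7120 had a difference of -2.25 from normal colon (adjusted p = 0.19).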

How the data were processed

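Polyadenylated RNA of 23 mouse specimens was sequenced in 2 runs, and the 4 ApcMin colon tumours were all in run 2. The deposited table gives FPKM for 23356 genes in 68 lane columns. The authors made it, per the submitters' processing notes, with FastQC, TopHat2 2.0.13 and Cuffnorm on mm10; no counts were used here, so absolute depth is unknown. Columns were averaged per specimen as log2(FPKM + 1). The 2 wildtype duodenum specimens carry different animal numbers but were counted as 1, since they differed about as much as lanes do. Their SD was 0.0811 in run 1 and 0.0953 in run 2, against 0.0821 and 0.0907 expected from lanes. A gene was kept if 2 specimens reached 1 FPKM (14098 genes), including 21 of 27 whose names had turned into dates, none of which is named. Group means were fitted over 22 samples (10 residual degrees of freedom) with limma 3.58.1 in R 4.3.3, eBayes with trend, two-sided, with Benjamini-Hochberg adjustment over all genes tested; the code was tested on simulated data. An SD or SE is on the log2 scale.

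The comparison, gene lists and tests were chosen with earlier results of these data known. Genes named are Cftr, Apc, those past the adjusted p, non-overlapping genes at 5 FPKM or more with the lowest p or largest change, and, per list, those with the lowest p or highest level. Cell type markers, Ly6c1, Ifit1, Ifit2, Isg15, the neighbouring pairs, the Hox genes and the defensins were named outside that rule, some after their values were seen. Gene positions are from the GRCm38 annotation, with 13942 genes placed. The replicate number is not stated to pair tumours. Alternatives were another pseudocount, other filters, quantile normalization, fewer samples in the fit, run 2 alone, a replicate block and leaving out each tumour. A few members of the lists are counted but not reported by name here.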

Additional observations from a re-analysis of the deposited data

How the results depend on the processing

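The count of called genes depended on how the spread was estimated. Against 9 in the analysis reported, there were 27 with no filter on low values, 50 with a replicate block, 16 with the wildtype duodenum specimens as 2, 5 with run 2 alone and 0 with these 4 tumours alone (590 at an unadjusted p under 0.05), where limma had fewer degrees of freedom. Leaving out single tumours gave 1 to 1920 calls: 1 without knockout tumour 1, 105 without knockout tumour 2, 1 without wildtype tumour 1 and 1920 without wildtype tumour 2. The cause was not tested. A pseudocount of 0.1 gave 10 calls and quantile normalization 7. With the block all 9 genes were called, and deviations of tumours with the same number correlated at 0.354 over genes, a hint from the data and not the design.

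For the difference from the ileum tumours, against 0 reported, 1 gene was called with no filter, with run 2 alone and with the duodenum specimens as 2, and 0 to 290 when single tumours were left out. For the difference from normal colon, 1 gene was called under each of the other pseudocount, no filter, quantile normalization, the compared groups alone, run 2 alone and the duodenum specimens as 2, and 0 to 358 when single specimens were left out. The block gave 0 for both.

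Of 776 values for 65 named genes, 665 kept direction and side of the threshold, 39 lost the call, 71 gained it and 1 changed sign: the log2 change of Cftr, which ran from -0.54 to 0.01 when single tumours were left out, the highest being without knockout tumour 1. Other genes named in the text were outside these 65 and were not counted there. Some of them, such as Ifit2 and Defa24, had both knockout tumours below wildtype tumour 1 and above wildtype tumour 2. The sign of their change thus depends on the wildtype tumour kept. Of 720 list medians 84 moved by more than the replicate spread. Quantile normalization shifted the median of all genes to -0.02. Precision is limited by 2 tumours and 1 animal number per genotype, and intervals that need counts were not computed.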

Other observations

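Among the 60 genes with the lowest p, 7 pairs lay within 200 kb of each other, a count given as a description. Besides the pairs already described, they were Masp1 with Rtp4, Gm5483 with BC100530, BC100530 with Stfa2, and 2700046A07Rik with Apcdd1. Masp1, a protease of the lectin complement pathway, and Rtp4, an interferon-stimulated chaperone, overlap by 525 bases on opposite strands, and their log2 changes were -0.60 and 1.06. Rtp4 was at 4.82 and 6.05 FPKM in the knockout tumours and 2.86 and 1.45 in the wildtype tumours. Gm5483, BC100530 and Stfa2 belong to the stefin cluster of cysteine protease inhibitors on chromosome 16, and their log2 changes were -2.24, -0.79 and -1.04.

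Enteric neuron and glia markers had 16 of 17 positive changes in the colon tumours, 4 of them with non-overlapping higher groups, a share near that of all genes. Their median of 0.18 was -0.04, with 7 of 17 positive, without knockout tumour 1. Vip, a neuropeptide of the enteric nervous system, was at 11.5 and 7.23 FPKM against 0.138 and 6.25. Erythroid genes had 6 of 6 positive changes with a median of 0.94, or 0.50 without wildtype tumour 2 and 1.41 without wildtype tumour 1, whereas the same genes had a median of -0.84 in the ileum tumours. Alas2, the heme synthesis enzyme of red cell precursors, was at 6.68 and 4.21 FPKM against 3.49 and 1.79. Whether blood held in the specimens differed was not tested.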
